A study of Rattus norvegicus with 6 samples.

Results

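The unfolded protein response regulators were described in 6 rat INS-1 insulinoma lines as a set of 10 genes. They were taken by gene symbol, and all 10 were found among the 32900 features of the count table and among the 15579 genes that were tested. By role, the set holds the stress sensors Ern1 (IRE1α), Eif2ak3 (PERK), Atf6 and Atf6b. It also holds the transcription factors Xbp1, Atf4, Ddit3 (CHOP), Creb3 and Creb3l2, and the protease gene Mbtps1 (S1P). All lines derive from INS-1(832/13)::mCherry, a β-cell line that carries a human insulin transgene with a neomycin resistance gene and a mouse Ins2 C-peptide-mCherry transgene. The 3 control lines (5-9, 2 and 16) have a deletion of the Prader-Willi syndrome (PWS) imprinted domain on the silent maternal allele only. The 3 PWS lines (3, 19-1 and 19-4) carry that maternal deletion and also lack the domain on the active paternal allele. Every line was grown in 7.5 mM glucose without treatment, and 1 library of total RNA depleted of rRNA was sequenced per line. Each line is a clone: lines 2, 16, 3 and 19 were isolated from line 5-9, lines 19-1 and 19-4 are subclones of line 19, and the deletion of line 3 has a larger alternate breakpoint. The 3 PWS lines therefore stand for 2 clones, and p-values measure the spread between lines, which may be technical.

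The unfolded protein response is the signaling network by which cells match the folding capacity of the endoplasmic reticulum (ER) to the load of secretory proteins. IRE1α is an endonuclease that splices Xbp1 mRNA so that it encodes the active transcription factor. PERK phosphorylates eIF2α, which lowers translation in general and favors translation of ATF4, and ATF4 in turn induces CHOP. ATF6 moves to the Golgi under stress, where S1P and S2P cut it and release a transcription factor for ER chaperone genes. The chaperone BiP, encoded by Hspa5, binds the sensors and keeps them inactive. β-cells rely on this network because proinsulin is a large share of what they fold. Much of the control is on splicing, phosphorylation, translation and cleavage, none of which a count per gene shows. Spliced and unspliced Xbp1 mRNA in particular share a count here.

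Counts summed over all features were between 26016478 and 36084261 per line. A read that aligned to several places or features is in these sums more than once. The labels were checked on the deleted domain: Snurf averaged 3688 ± 459 normalized counts (SD, n = 3) in the controls and had at most 4 reads in any PWS line. All 12 β-cell markers examined were above 3 reads, the floor that a count of 0 allows, in every line. Their summed level ranged from 599697 to 657193 normalized counts in the controls and from 331625 to 566417 in PWS lines. Gcg, the glucagon gene, was at 100 normalized counts in line 19-4 and between 0 and 19.0 elsewhere. Of 9 markers of immune, endothelial, mesenchymal, ductal and acinar cells found in the table, only Cd68 was above 3 reads in any line. The part of these shifts in the results below was not tested, and in bulk RNA a smaller number of cells of a kind cannot be told apart from less RNA per cell. Levels are normalized counts, which are read counts divided by a size factor per line. They compare lines for a given gene but not genes with each other, since they are not divided by transcript length.

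The transcript levels of the 10 regulators did not move together between control and PWS lines. The log2 fold change (PWS minus control, from limma on log2(normalized count + 1)) was above 0 for 5 and below 0 for 5, and its median was 0.001, beside -0.0028 over all tested genes. Below 0 lay 50.7% of all tested genes. After adjustment, none of the 10 was called at 0.05 in limma, where 0.257% of the tested genes did, nor in edgeR (0.205% of tested genes) or DESeq2 (1.47%). At an unadjusted limma p-value under 0.05 there were 3, Ern1, Atf6 and Creb3, beside 11.3% of all tested genes. The groups did not overlap for the same 3 genes, beside 17.4% of all tested genes, with 2 higher in PWS lines (8.43% of tested genes) and 1 lower (9.01%). The largest fold change of the set, that of Creb3l2, was exceeded in size by 16.0% of all tested genes. The 95% interval of the log2 fold change lay within 0.5 of 0 for 8 of the 10 genes. Between 432 and 7516 reads were behind each value.

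**Figure D1:**
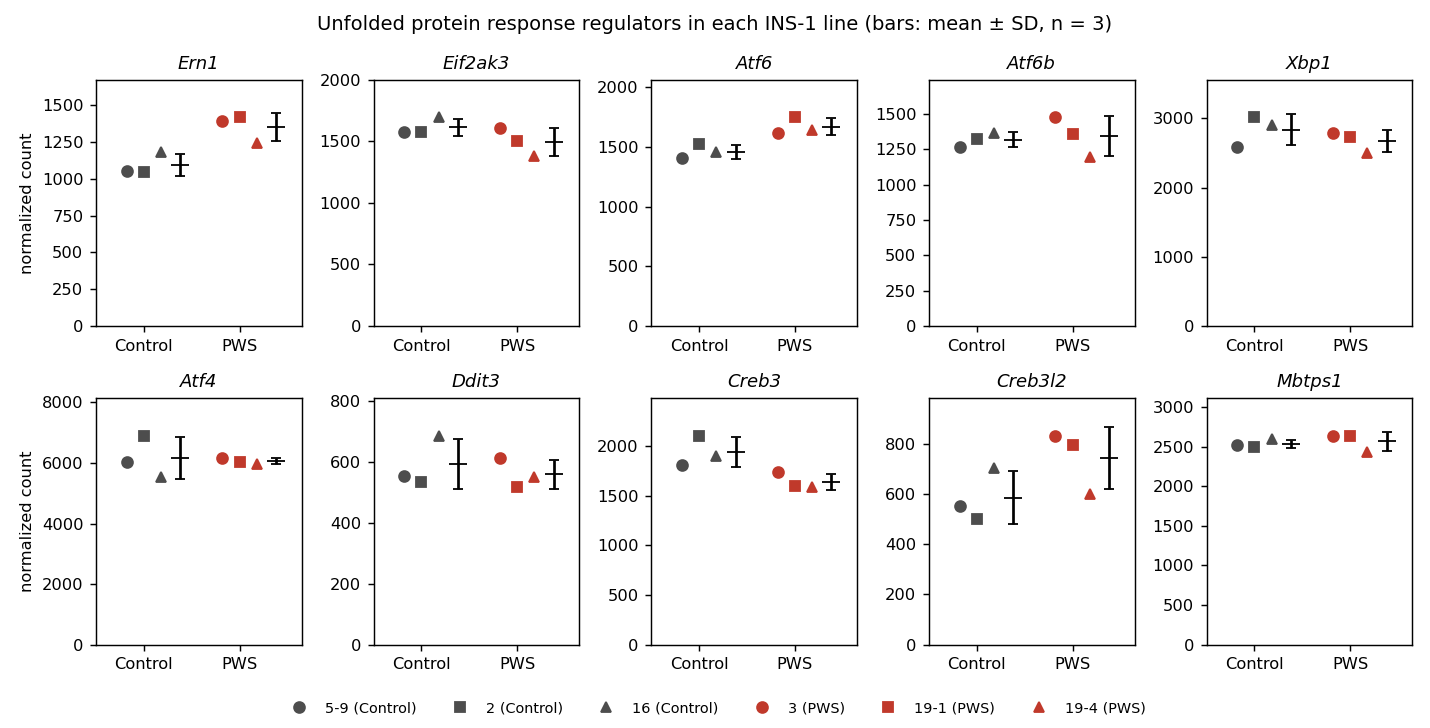
Normalized counts (y axis, from 0, scaled per gene) of the 10 regulators in each of the 6 lines, by group (x axis), with bars for the mean ± SD of 3 lines. The groups separate for Ern1 and Atf6, higher in PWS lines, and for Creb3, lower in PWS lines, and overlap for the other 7 genes.

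Among the sensors, Ern1 (ENSRNOG00000012864), the most conserved of them, was at 1056, 1043 and 1179 normalized counts in lines 5-9, 2 and 16 and at 1391, 1418 and 1243 in lines 3, 19-1 and 19-4. Every PWS line lay above every control line, with control line 16 and PWS line 19-4 nearest to each other. The mean was 1093 ± 75.2 in control and 1351 ± 94.5 in PWS lines (SD, n = 3 each). That is 0.31 on the log2 scale (standard error 0.085), or 1.24-fold with a 95% interval from 1.08 to 1.41. The unadjusted limma p-value was 0.00666, and the adjusted p-value was 0.285 in limma, 0.290 in edgeR and 0.128 in DESeq2. The difference was therefore not called after adjustment over all genes.

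Atf6 (ENSRNOG00000024632), the sensor that becomes a transcription factor on cleavage, was at 1406, 1522 and 1455 normalized counts in lines 5-9, 2 and 16 and at 1617, 1749 and 1644 in lines 3, 19-1 and 19-4. The 3 PWS lines were again all above the 3 control lines. With means of 1461 ± 58.1 and 1670 ± 70.0 (SD, n = 3 each), the log2 fold change was 0.19 (standard error 0.069), or 1.14-fold (95% interval 1.02 to 1.28). Its adjusted p-value was 0.369 in limma, 0.346 in edgeR and 0.385 in DESeq2, from an unadjusted limma p-value of 0.0230.

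Eif2ak3 (ENSRNOG00000006069), the gene of PERK, was at 1575, 1576 and 1695 normalized counts in lines 5-9, 2 and 16 and at 1607, 1503 and 1381 in PWS lines 3, 19-1 and 19-4. PWS line 3 lay between the control lines, so the groups overlapped. On the log2 scale Eif2ak3 differed by -0.11 (standard error 0.079), with an interval from -0.29 to 0.07 and an adjusted limma p-value of 0.635. Without line 19-4 the difference was -0.055. Atf6b (ENSRNOG00000000431), the ATF6 paralog, had 1266, 1323 and 1367 normalized counts in lines 5-9, 2 and 16 and 1475, 1360 and 1191 in lines 3, 19-1 and 19-4. The PWS lines held both the highest and the lowest value of the 6. Between groups Atf6b differed by 0.02 on the log2 scale (standard error 0.091), its interval ran from -0.19 to 0.23, and its adjusted limma p-value was 0.955.

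The balance of the paralogs was examined within each line. The log2 ratio of Atf6 to Atf6b normalized counts, measured against the mean of the control lines, was 0.00, 0.05 and -0.06 in lines 5-9, 2 and 16 and -0.02, 0.22 and 0.32 in lines 3, 19-1 and 19-4. Lines 19-1 and 19-4, the subclones of line 19, lay above the other 4 lines, and line 3 lay among the control lines. The difference between groups was 0.17 on the log2 scale (two-sided exact permutation test, p = 0.3, where 3 lines against 3 allow no p under 0.1). Without line 3 it was 0.27, and without line 19-4 it was 0.10.

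Among the transcription factors, Xbp1 (ENSRNOG00000010298), the target of IRE1α splicing, was at 2589, 3014 and 2905 normalized counts in lines 5-9, 2 and 16 and at 2794, 2725 and 2499 in lines 3, 19-1 and 19-4. The lowest value of all was in PWS line 19-4 and the next lowest in control line 5-9, so the groups overlapped. Between groups Xbp1 differed by -0.08 on the log2 scale (standard error 0.081), with an interval from -0.27 to 0.10 and an adjusted limma p-value of 0.739. With a line left out it ranged from -0.15 without control line 5-9 to -0.04 without line 19-4.

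Atf4 (ENSRNOG00000017801), the factor whose translation PERK favors, was at 6037, 6899 and 5531 normalized counts in lines 5-9, 2 and 16 and at 6174, 6028 and 5981 in PWS lines 3, 19-1 and 19-4. All 3 PWS lines lay between the lowest and the highest control line. Its mean was 6156 ± 692 in control and 6061 ± 101 in PWS lines (SD, n = 3 each). This is a difference of -0.02 on the log2 scale (standard error 0.087), or 0.989-fold with an interval from 0.862 to 1.13, at an adjusted limma p-value of 0.962. Ddit3 (ENSRNOG00000006789), which encodes the pro-apoptotic factor CHOP, was at 556, 534 and 687 normalized counts in lines 5-9, 2 and 16 and at 613, 517 and 552 in lines 3, 19-1 and 19-4. Control line 16 stood highest and PWS line 19-1 lowest, with the other lines of both groups interleaved. Ddit3 differed by -0.08 on the log2 scale (standard error 0.119), with an interval from -0.35 to 0.20 and an adjusted limma p-value of 0.858.

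Creb3 and Creb3l2 encode membrane-bound factors of the ATF6 type that are also released by proteolysis, and the sign of the difference was opposite for them. Creb3 (ENSRNOG00000016452) was at 1810, 2101 and 1900 normalized counts in lines 5-9, 2 and 16 and at 1732, 1594 and 1581 in PWS lines 3, 19-1 and 19-4. All PWS lines lay below all control lines. The means were 1937 ± 149 and 1636 ± 83.9 (SD, n = 3 each), a log2 fold change of -0.24 (standard error 0.080) or 0.846-fold (95% interval 0.745 to 0.960). The adjusted p-value was 0.341 in limma, 0.336 in edgeR and 0.258 in DESeq2, from an unadjusted limma p-value of 0.0156.

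Creb3l2 (ENSRNOG00000012826), whose product is known for a role in secretory capacity, was at 553, 500 and 703 normalized counts in lines 5-9, 2 and 16 and at 832, 794 and 601 in lines 3, 19-1 and 19-4. Lines 3 and 19-1 were the highest of the 6, but line 19-4 lay below control line 16. Its fold change on the log2 scale, 0.34, had a standard error of 0.161, the widest of the set, and an interval from -0.03 to 0.71, at an adjusted limma p-value of 0.469. With a line left out it ranged from 0.24 without control line 2 to 0.49 without line 19-4. Mbtps1 (ENSRNOG00000015173), the gene of the protease that makes the first cut in ATF6, was at 2526, 2496 and 2596 normalized counts in lines 5-9, 2 and 16 and at 2640, 2641 and 2435 in lines 3, 19-1 and 19-4. PWS line 19-4 was the lowest and the other PWS lines the highest of the 6. Mbtps1 differed by 0.02 on the log2 scale (standard error 0.065), with an interval from -0.13 to 0.17 and an adjusted limma p-value of 0.946. Of the reads counted for Mbtps1, 61.7% were unique to it, against over 99% for each of the other 9 genes, so part of its count is shared with overlapping or similar features.

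The members also varied between the lines of a group. Line 19-4 had the lowest value of the PWS lines for 8 of the 10 genes and line 3 the highest for 7. Among the control lines, line 16 had the highest value for 6 genes and line 2 for 4. Over the 6 lines, Pearson correlations of log2 normalized counts between members had a median of 0.24 over 45 pairs. They were above 0.8 for Ern1 with Creb3l2 (0.92), Atf6b with Mbtps1 (0.88), Creb3l2 with Mbtps1 (0.83) and Ern1 with Atf6 (0.82). These correlations describe 6 libraries, in which the genes share a size factor and lines 19-1 and 19-4 share a parent. They were not centered by group, so a difference between the groups, as for Ern1 and Atf6, enters them.

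Among 11042 genes with a symbol and a mean of at least 50 normalized counts, the genes whose log2 levels were most alike over the 6 lines were listed for 3 regulators. For Atf6 they were Setd1a (Pearson r = 0.996), Maml1 (0.994) and Sall2 (0.994), and 263 genes were above 0.9. For Xbp1 they were Hist1h2bo (0.981), Ptchd1 (0.981) and Scly (0.979), with 118 genes above 0.9. For Ddit3 they were Cul7 (0.982), Mogs (0.980) and Hm13 (0.979), with 39 genes above 0.9. With 6 lines and no centering by group such values are a description, and none of these 9 genes is on the lists of the pathway used here.

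The other genes of the response were taken from 7 lists of 106 genes, of which 93 were tested. At an adjusted p-value under 0.05, limma and edgeR called none of the 93 (0.257% and 0.205% of all tested genes) and DESeq2 called 7 (1.47%). At an unadjusted limma p-value under 0.05, 4 were higher and 20 lower, beside 11.3% of all tested genes in either direction and 5.35% lower. The lists hold genes already known to be lower in these lines, so their counts are no independent evidence of a direction. Genes named for an unadjusted p-value rather than as the ends of a list were chosen after their values were seen.

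The IRE1 branch list holds 12 genes, with Ern2 at 0 reads in every line. Of the 11 tested, 10 had a log2 fold change below 0, with a median of -0.13. Its ends were Ptpn1 (0.14; adjusted limma p-value 0.572), a phosphatase of the ER membrane, and Zbtb8os (-0.29; adjusted limma p-value 0.610), a cofactor of the tRNA ligase that joins Xbp1 exons. The value of Zbtb8os rested on control line 2, at 2178 normalized counts beside 1222 to 1301 in the other 5 lines. Past an unadjusted p-value of 0.05 were Ufl1 (-0.27), the ligase of the UFM1 modifier, and Map3k5 (-0.20), the kinase ASK1. Ern1 itself thus lay above 0 beside a list that lay mostly below it.

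The PERK list of 17 genes, which holds the eIF2 and eIF2B subunits, the other eIF2α kinases and the phosphatase subunits, had a median of -0.03, with 6 above and 11 below 0. Its highest was Eif2ak1 (0.19; adjusted limma p-value 0.449), the heme-regulated eIF2α kinase. Its lowest was Dnajc3 (p58IPK), an ER co-chaperone that inhibits PERK. Dnajc3 was at 3466, 3352 and 4272 normalized counts in lines 5-9, 2 and 16 and at 3021, 2534 and 2444 in lines 3, 19-1 and 19-4. The groups did not overlap, and the log2 fold change was -0.47 (standard error 0.116), with an adjusted p-value of 0.277 in limma and 0.0229 in DESeq2.

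Of the list for ATF6 processing and cofactors, 12 of 13 genes were tested, since Thbs4 had no reads, and the median was 0.02. Mbtps2, which encodes S2P, the protease that makes the second cut, was its highest gene. It was at 657, 620 and 809 normalized counts in lines 5-9, 2 and 16 and at 805, 964 and 1024 in lines 3, 19-1 and 19-4. Only control line 16 and PWS line 3 overlapped, and the difference was 0.42 on the log2 scale (standard error 0.129), at an adjusted limma p-value of 0.320. Mbtps1, of the same processing step, had a log2 fold change of 0.02. Gtf2i (0.41; adjusted limma p-value 0.308), a general transcription factor, was also past an unadjusted p-value of 0.05. So was Insig1 (-0.32; adjusted limma p-value 0.373), which retains the SREBP complex in the ER and was the lowest of the list, with 70.4% of its reads unique.

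Of 12 other bZIP factors of the stress response, 8 were tested, 6 above and 2 below 0, with a median of 0.05 and no unadjusted p-value under 0.05. The ends were Cebpb (0.17) and Creb3l1 (-0.33), a relative of Creb3l2 at a mean of 25.4 normalized counts in control and 18.6 in PWS lines. Each value rested on a single line. Creb3l1 was at 39.5 in control line 2 beside 15.2 to 21.6 in the other lines. Cebpb was at 916 in line 19-4 beside 638 to 739 in the other lines.

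The targets of the factors were described list by list. All 12 tested targets of ATF6, which are ER chaperones, their helpers and, with Sel1l and Herpud1, parts of ER-associated degradation, had a log2 fold change below 0, with a median of -0.50. At an unadjusted p-value under 0.05, 11 of the 12 were lower, beside 5.35% of all tested genes, and for 8 of the 12 all PWS lines lay below all control lines, beside 9.01%. The smallest adjusted p-value in limma was 0.129, for Sdf2l1. DESeq2 called 6 of the 12, beside 1.47% of all tested genes: Hspa5, Pdia4, Hyou1, Creld2, Sdf2l1 and Dnajb11. The list holds genes already known to be lower in these lines, so these counts describe it only. Per line, the median log2 level of the 12 against the control mean was -0.14, -0.05 and 0.18 in control lines 5-9, 2 and 16 and -0.28, -0.59 and -0.59 in PWS lines 3, 19-1 and 19-4. The same median over the 10 regulators was -0.06, -0.01 and 0.05 in the control and 0.06, 0.01 and -0.08 in the PWS lines. The median of the targets was thus lower in each PWS line than in each control line, and the regulator median was not. Line 3 was the PWS line nearest to the control lines for these targets. The ends of this list were Sel1l (-0.18) and Sdf2l1 (-0.95).

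**Figure D2:**
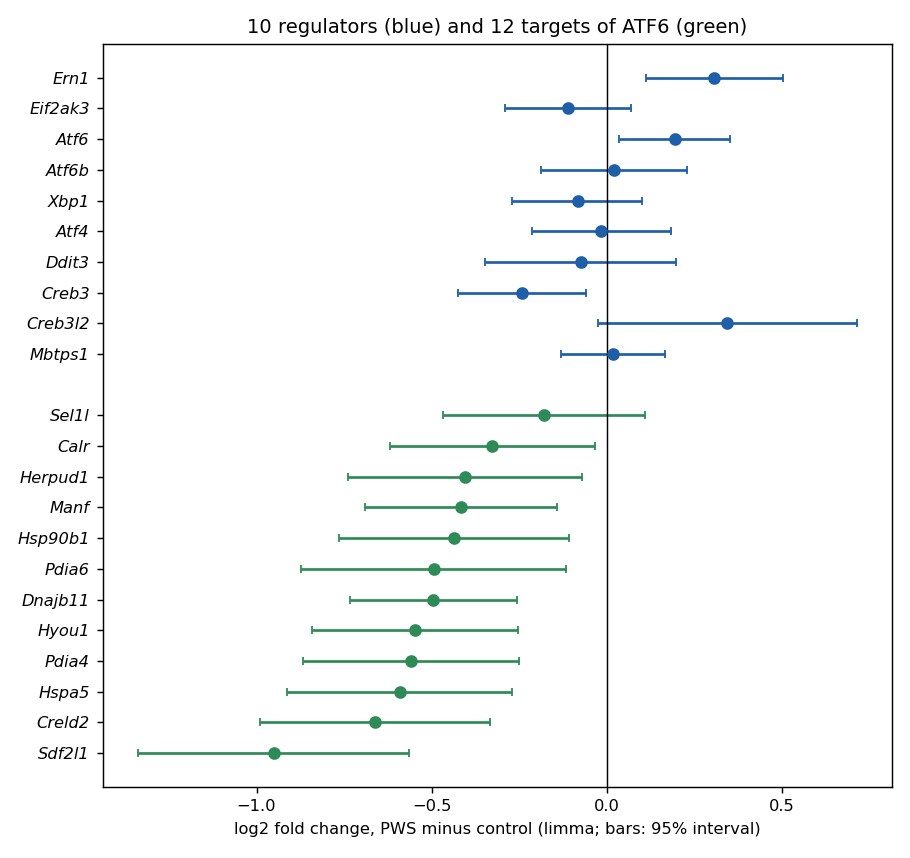
Log2 fold change between PWS and control lines (x axis, limma) with its 95% interval for the 10 regulators (blue) and the 12 ATF6 targets (green), 1 gene per row. The points of the regulators lie on both sides of 0, between -0.24 and 0.34, and those of the targets all lie below it, between -0.95 and -0.18.

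The sensors and Xbp1 were then set beside BiP in each line, a comparison chosen after Hspa5 was known to be lower. Hspa5 was at 59385, 70665 and 72342 normalized counts in lines 5-9, 2 and 16 and at 54201, 40807 and 40088 in lines 3, 19-1 and 19-4. Hspa5 differed by -0.59 on the log2 scale (standard error 0.141), with an adjusted p-value of 0.265 in limma and 0.00335 in DESeq2. The log2 ratio of Atf6 to Hspa5, against the mean of the control lines, was 0.12, -0.01 and -0.11 in lines 5-9, 2 and 16 and 0.46, 0.98 and 0.92 in lines 3, 19-1 and 19-4. The ratio was higher in every PWS line, by 1.72-fold on average. The ratio to Hspa5 was 1.86-fold higher for Ern1, 1.40-fold for Eif2ak3 and 1.42-fold for Xbp1. The groups did not overlap for any of the 4 ratios, but the ratio to Hspa5 was higher in all PWS lines for 67.2% of all tested genes. The median difference of that ratio over all tested genes was 0.59 on the log2 scale, beside 0.90 for Ern1, 0.78 for Atf6, 0.51 for Xbp1 and 0.48 for Eif2ak3. All 4 ratios thus mostly restate the values of Hspa5, which was chosen for being lower, and no test is given. Ratios of transcripts do not give the ratio of the proteins.

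Of 15 tested XBP1 targets (of 16 listed), which serve ER translocation and degradation, 12 were below 0 and the median was -0.09. The lowest was Derl3 (-0.90; adjusted limma p-value 0.277), a member of the ER degradation machinery at 141 ± 10.6 normalized counts in control and 77.4 ± 23.8 in PWS lines (SD, n = 3 each). No read of Derl3 was unique to it, so its count cannot be told apart from that of an overlapping or similar feature. Sec61b (-0.39), a translocon subunit, and Dnajb9 (-0.28), a BiP cofactor, were also past an unadjusted p-value of 0.05. The highest was Sec31a (0.24), a COPII coat subunit.

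Of 18 tested targets of ATF4 and CHOP (of 24 listed), 11 were above and 7 below 0, with a median of 0.03 beside the -0.02 of Atf4 and the -0.08 of Ddit3. Gdf15 (0.51; adjusted limma p-value 0.428), a stress-induced cytokine, was the highest and Ero1b (-0.51; adjusted limma p-value 0.420), an ER oxidase of β-cells, the lowest. Both values leaned on a single line. Gdf15 was at 140 normalized counts in control line 2 and at 235 to 295 in the other lines. Ero1b was at 1023 in line 19-4 and at 1498 to 2385 in the other lines. Asns (0.23), the asparagine synthetase, and Slc7a11 (-0.39), the cystine transporter, were also past an unadjusted p-value of 0.05. All PWS lines lay above all control lines for 2 of the 18, Gdf15 and Asns, beside 8.43% of all tested genes. They lay below for 1, Slc7a11, beside 9.01%.

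**Figure D3:**
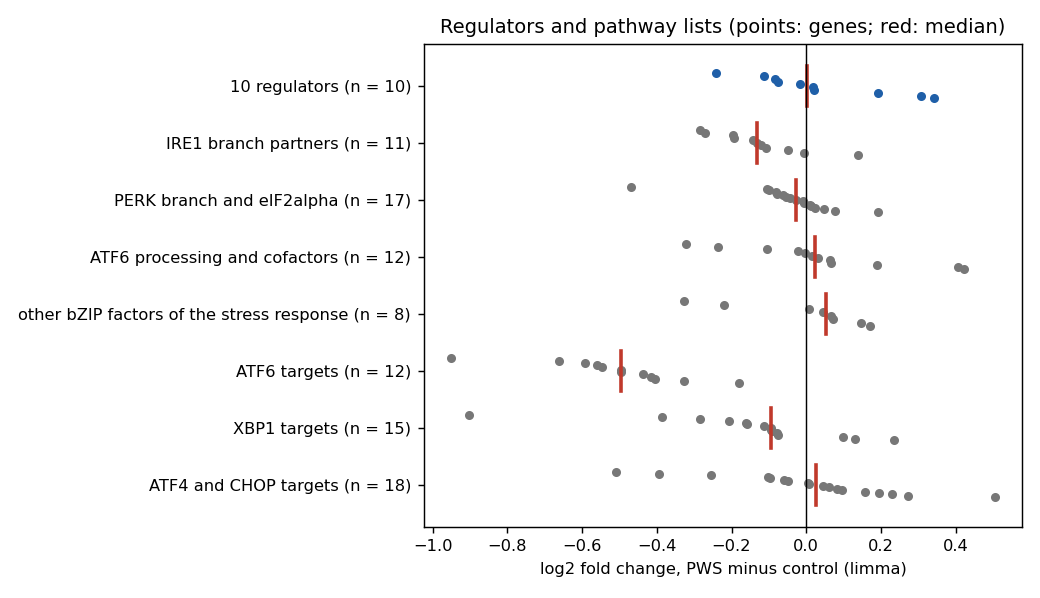
Log2 fold change between PWS and control lines (x axis, limma) for each tested gene (points) of the 10 regulators and 7 pathway lists (rows), with the median in red. The ATF6 targets have the lowest median, -0.50, and the regulators a median of 0.001.

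Xbp1 is at once a regulator and a target, since ATF6 acts on its promoter, so promoters were searched for the elements of the response. The ER stress response element (ERSE) is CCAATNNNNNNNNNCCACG, in which NF-Y binds CCAAT and ATF6 binds CCACG. ERSE-II is ATTGG, the reverse complement of CCAAT, then any base, then the same CCACG. The UPR element (UPRE), TGACGTGG, is read by XBP1 and ATF6, and the C/EBP-ATF response element (CARE), TGATGNAAN, by ATF4 and CHOP. Both strands were searched in 33469 RefSeq promoters of build GRCr8, from 250 bases before to 50 after each start, and 8 of the 10 regulators were matched, all but Ern1 and Atf6. The ERSE was in 22 promoters (0.0657% of all), and among the 8 regulators only in that of Xbp1. ERSE-II was in 17 promoters (0.0508%), the UPRE in 199 (0.595%) and the CARE in 1328 (3.97%), none of them of the 8 regulators. A match describes letters and is not a site shown to be bound, and a missing match says only that the letters are not in the window.

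The 250 bases before the start of Xbp1, chr14:84604373-84604622 on the plus strand (GRCr8, RefSeq), are given with the ERSE in capitals, since it is the regulator that shares an element with the chaperones. The element lay 65 to 47 bases before the start.
Xbp1 promoter: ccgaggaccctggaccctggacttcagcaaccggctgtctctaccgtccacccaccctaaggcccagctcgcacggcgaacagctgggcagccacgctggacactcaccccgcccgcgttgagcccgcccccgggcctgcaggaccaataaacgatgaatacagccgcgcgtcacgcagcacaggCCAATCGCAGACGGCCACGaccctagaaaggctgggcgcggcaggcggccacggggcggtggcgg

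For comparison, the windows of 39 bases around the ERSE (in capitals) are given for Xbp1 and for the 7 genes of the pathway lists that hold it, all in the direction of the element. Hsp90b1 held it at 2 places, and the one nearer to the start is shown.
Xbp1: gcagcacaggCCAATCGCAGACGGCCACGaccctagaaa
Hspa5: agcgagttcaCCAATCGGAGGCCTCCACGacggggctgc
Creld2: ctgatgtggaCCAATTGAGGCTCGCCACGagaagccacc
Hsp90b1: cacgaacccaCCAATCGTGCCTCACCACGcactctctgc
Calr: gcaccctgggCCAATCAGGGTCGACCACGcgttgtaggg
Dnajc3: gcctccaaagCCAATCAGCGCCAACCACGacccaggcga
Derl3: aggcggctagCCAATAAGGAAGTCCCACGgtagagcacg
Ero1b: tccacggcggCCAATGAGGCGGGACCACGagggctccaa

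In GRCr8 the windows are chr14:84604548-84604586 (plus strand) for Xbp1, chr3:38452963-38453001 (plus) for Hspa5, chr7:121789229-121789267 (minus) for Creld2 and chr7:23012337-23012375 (plus) for Hsp90b1. Those of Calr, Dnajc3, Derl3 and Ero1b are chr19:40213125-40213163 (minus), chr15:102432524-102432562 (plus), chr20:12766591-12766629 (plus) and chr17:92941448-92941486 (minus). All 8 hold the same outer letters by construction, while the 9 bases between them differ. The element of Hspa5, the BiP gene, lay 43 to 25 bases before the start.

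Among 12 ATF6 targets, 10 had a promoter in the table. The ERSE was in 4 of these and ERSE-II in 3, Hyou1, Dnajb11 and Herpud1. The ERSE-II windows are given with the element in capitals, for Hyou1 at the nearer of its 2 matches.
Hyou1: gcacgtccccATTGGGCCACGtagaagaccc
Dnajb11: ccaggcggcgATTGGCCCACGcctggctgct
Herpud1: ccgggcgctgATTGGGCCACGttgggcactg

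They lie at chr8:53602784-53602814, chr11:91672790-91672820 and chr19:10614811-10614841, all printed from the minus strand of GRCr8. These 3 genes had log2 fold changes of -0.55 for Hyou1, -0.50 for Dnajb11 and -0.41 for Herpud1.

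The promoters with an ERSE belong to 21 genes, of which 15 were tested, Xbp1 included. Of the 15, 12 had a log2 fold change below 0 (50.7% of all tested genes did), and the median was -0.28. For 7 of them all PWS lines lay below all control lines (9.01% of all tested genes), and for none above. The 7 were Derl3 (with no read unique to it), Creld2, Hspa5, Dnajc3, Hsp90b1, Birc5 and Canx. Xbp1 was not one of them: its log2 level against the control mean was -0.13, 0.09 and 0.04 in lines 5-9, 2 and 16 and -0.02, -0.05 and -0.18 in lines 3, 19-1 and 19-4. Creld2, for comparison, was at -0.14, 0.01 and 0.13 in the control lines and at -0.33, -0.89 and -0.76 in the PWS lines. Of the 11 tested genes with an ERSE-II, 9 were below 0, with a median of -0.31. Most of the chaperone genes among them were known beforehand to be lower, so these counts describe the genes and test nothing about the element.

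**Figure D4:**
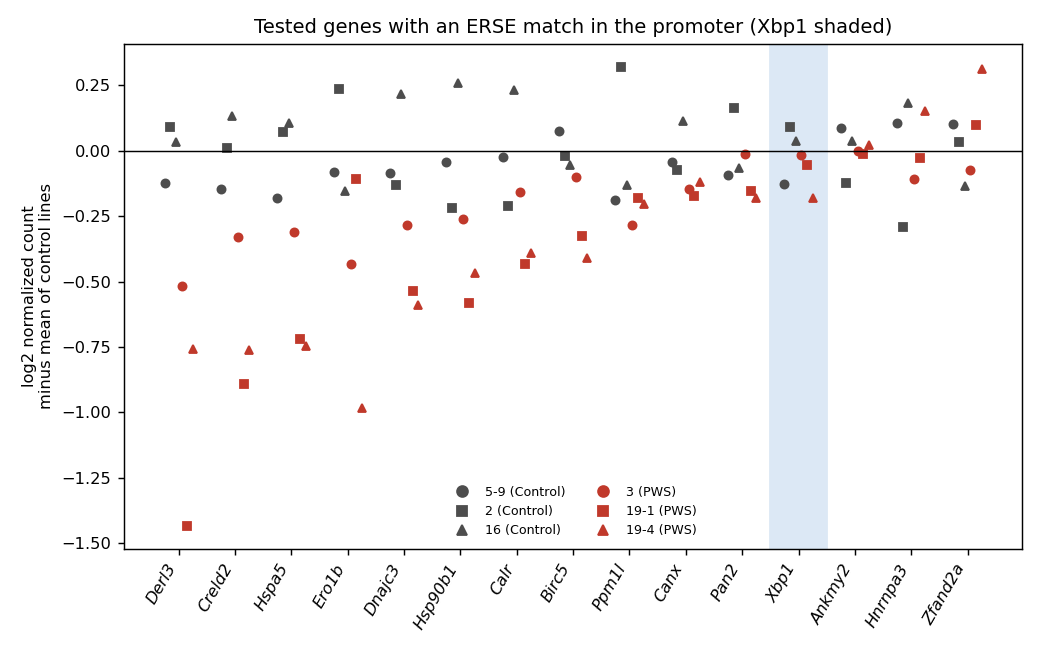
Log2 normalized count minus the mean of the control lines (y axis) in each of the 6 lines for the 15 tested genes with an ERSE match in the promoter (x axis, ordered by fold change, Xbp1 shaded). All PWS lines (red) lie below all control lines (gray) for 7 of the first 10 genes from the left, and for Xbp1 the groups overlap.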

How the data were processed

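Total RNA of 3 control and 3 PWS INS-1 lines was analyzed, with 1 library per line and lines as replicates. Per the submitters' processing notes the authors used FastQC 0.11.5, cutadapt, STAR 2.7.0e, HTSeq 0.11.2, RSEM 1.3.1 and DESeq2 (given there as 3.9). Reads were aligned to the rat genome of Ensembl release 98 with transgenes and custom features added, and no other build name is given in the sources used here. The deposited tables hold a signal per gene and line, read counts that the authors divided by DESeq2 size factors (normalized counts), for 3 ways of counting. The main values come from the HTSeq table that counts a read at every place and feature it aligns to (nonunique all), since the study used it. Counting only unambiguous reads (nonunique none) and RSEM were alternatives. The authors' own log2 fold changes, standard errors and p-values in these tables and their annotation of custom features were not used. No column was left without a sample, and small RNA and protein data were not analyzed here.

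Normalized counts were increased by 1 and log2 transformed, which understates the fold changes of low genes, and the 15579 genes whose mean reached 5 were compared between groups with limma 3.58.1 (R 4.3.3; linear model with empirical Bayes moderation and a mean-variance trend). Adjustment was by Benjamini and Hochberg over all tested genes, and adjusted p-values under 0.05 were called. Whole reads were recovered from the table (100% of values within 0.01 of a whole number) and analyzed with DESeq2 1.42.0 and with the quasi-likelihood test of edgeR 4.0.16. Counts summed over all features, with a read counted at each feature it aligned to, were between 26016478 and 36084261 per line. At 0 reads a gene may still have had up to 3, which is 2.73 to 3.59 normalized counts by line and covers counting error only. The ratio of Atf6 to Atf6b was compared by a two-sided exact permutation test. The 3 fits were tested on simulated counts with known changes. The regulators, pathway lists and tests were chosen with earlier results of these data known. The text names all regulators, the highest and lowest gene of each list and any listed gene past the threshold. For Xbp1, Ddit3 and Atf6 it names the 3 genes most alike over the lines. Some listed genes past an unadjusted limma p-value of 0.05 were added after their values were seen. Alternatives were pseudocounts of 0.5 and 5, no filter or a minimum mean of 50, edgeR, DESeq2, TMM scaling, both other countings, leaving out each line, lines 19-1 and 19-4 averaged, the replicate number as a block and an adjusted p-value under 0.1.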

Additional observations from a re-analysis of the deposited data

How the results depend on the processing

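No regulator passed the threshold under any alternative, and the smallest adjusted p-value was 0.128, for Ern1 with DESeq2. Of 170 fold changes of regulators under 17 alternatives, 163 kept their direction and 7 reversed, all of genes near 0. Atf6b was at -0.016 with RSEM, and between -0.05 and 0.104 when a line was left out. With a line left out Eif2ak3 ranged from -0.164 to -0.055, Xbp1 from -0.148 to -0.037 and the log2 ratio of Atf6 to Atf6b from 0.1 to 0.266. Atf4 ranged from -0.091 to 0.069, positive without control line 2, Ddit3 from -0.145 to 0.036, positive without control line 16, and Mbtps1 from -0.002 to 0.057, negative without line 3 or line 19-1. Between 3 and 5 regulators did not overlap between groups when a line was left out, 5 without line 19-4, which added Creb3l2 and Mbtps1. With only 5 lines the same held for 25.4% to 30.6% of all tested genes, 26.4% without line 19-4, so the rise is not read as a result. Genes of the pathway lists past the threshold numbered 7 with DESeq2 and 0 to 2 with a line left out, the 2 being Creld2 (-0.83; adjusted p-value 0.0271 in limma) and Sdf2l1 (-1.14; 0.0177) without line 3. Over all genes, 40 calls became 9 with a mean of at least 50, 228 with DESeq2, 16 with nonunique none counting and 12 with RSEM, and 33 to 55 with a line left out. The cause was not tested. The replicate block gave 36 calls over all genes and changed no call of a regulator. Deviations of lines with the same number correlated between 0.003 and 0.047, so the numbers were not taken to pair them. With 3 lines per group and a median standard error of 0.083, small differences of the regulators were not detectable.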
